A study of Mus musculus with 8 samples.

Results

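Genes of the basophil and mast cell program were followed in sorted leukemic stem cells (LSCs) of a mouse model of chronic myeloid leukemia (CML), without and with imatinib. The program held 9 genes, Cpa3, Ms4a2, Fcer1a, Gzmb, Mcpt8, Prss34, Hdc, Cdh1 and Il1rl1. They were proposed with the levels in these same libraries in view, so that their levels below are a description and carry no test. Of these, 8 had a row among the 15576 genes of the table, and Gzmb was not analysed here. 4 libraries came from untreated CML mice and 4 from CML mice given imatinib (CML-TKI), a tyrosine kinase inhibitor that blocks BCR-ABL. All mice carried the BCR-ABL and SCL-tTA transgenes on a background labelled C57BL/6, in which the oncogene is expressed where the SCL-tTA transgene is active once tetracycline is withdrawn. According to the sample labels, imatinib was given by gavage at 400 mg/kg on alternate days for 4 weeks, or 30 days in the treatment protocol. The study's own text also gives a lower dose, so that the dose used here is that of the labels. The ages of these mice were not given in the sources used here, nor whether each library came from a separate mouse, so that the p-values measure the spread between libraries, which may be technical.

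The labels describe one gate for both groups, lineage-negative, Sca1-positive, c-Kit-positive, Flt3-negative, CD150-negative and CD48-positive, whereas the study describes LSCs as CD150-positive and CD48-negative. Kit, the receptor behind the c-Kit gate, stood between 764 and 1023 CPM, the count scaled to library size with TMM, in CML and at 194.3 to 290.4 CPM in CML-TKI. Library totals ran from 4939644 to 8620101 counts in CML and from 1041552 to 5104268 in CML-TKI, so that 3 counts, taken as the floor of detection, correspond to 0.41 to 0.58 CPM in CML and 0.57 to 3.29 CPM in CML-TKI. Floors cover counting error only. CML-TKI 3 had the smallest total and the highest floor and stood apart from the other 7 libraries: Hba-a1, a hemoglobin chain, reached 19620 CPM in it and no more than 109.8 CPM elsewhere. The fourth CML column carries the number 5 and is called CML 5.

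Basophils and mast cells are granulocytes that arise from myeloid progenitors and release granule proteases, histamine and lipid mediators when IgE bound to their surface is crosslinked. The high-affinity IgE receptor is built from an alpha chain that binds IgE (Fcer1a), a beta chain that amplifies the signal (Ms4a2) and a gamma chain that carries it into the cell (Fcer1g). Mcpt8 and Prss34 encode serine proteases of mouse basophil granules, Cpa3 the granule carboxypeptidase of mast cells and basophils, and Hdc the enzyme that makes histamine. Il1rl1 encodes the receptor of the cytokine IL-33, and Cdh1 encodes E-cadherin, an adhesion protein best known from epithelia. GATA2 is a transcription factor needed in stem cells and in the development of mast cells and basophils.

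Since all of these genes had a higher mean in the treated libraries, the DNA just before their start sites is shown for those that hold a GATA motif there. The motif searched was AGATAA or TGATAA on both strands, in the 250 bases before a listed start site (build GRCm38.p6). The RefSeq extents of Il1rl1, Hdc and Mcpt8 begin upstream of these windows, and those of Ms4a2, Cpa3 and Fcer1a within them. Start sites further upstream were not searched. The promoters of 7 of the 8 genes were searched, and that of Cdh1 was not. Of the 7, 5 held a match, against 17.0% of the 27025 promoters searched in the same way. The matches began 224, 37 and 11 bases before the start of Ms4a2, 92 bases before that of Fcer1a, 217 and 80 bases before that of Il1rl1 (the first of its 2 start sites), 46 bases before that of Cpa3 and 31 bases before that of Prss34. The 100 bases before each start follow, 5′ to 3′ on the gene's strand, with the motif in capitals, as AGATAA or TGATAA or as its reverse complement.
Ms4a2 promoter, chr19:11623720-11623819, minus strand: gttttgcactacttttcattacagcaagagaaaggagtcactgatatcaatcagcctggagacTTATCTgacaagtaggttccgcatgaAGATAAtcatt
Fcer1a promoter, chr1:173227230-173227329, minus strand: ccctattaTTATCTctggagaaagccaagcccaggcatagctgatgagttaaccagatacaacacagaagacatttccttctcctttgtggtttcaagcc
Il1rl1 promoter, chr1:40429470-40429569, plus strand: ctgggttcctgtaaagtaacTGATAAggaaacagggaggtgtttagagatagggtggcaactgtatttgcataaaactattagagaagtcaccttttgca
Cpa3 promoter, chr3:20242182-20242281, minus strand: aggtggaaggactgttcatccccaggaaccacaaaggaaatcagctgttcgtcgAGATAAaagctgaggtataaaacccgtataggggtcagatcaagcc
Prss34 promoter, chr17:25298294-25298393, plus strand: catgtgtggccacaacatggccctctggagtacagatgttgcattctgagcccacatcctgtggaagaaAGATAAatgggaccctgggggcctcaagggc
The windows of Mcpt8 and Hdc held no match, which says only that these letters do not occur there. The second start site of Il1rl1, which is not counted here, held a GATA match 103 bases before it and a RUNX match, named below. A match is a stretch of letters and was not tested for binding. 4 other motifs were searched in the same windows, without regard to overlap with the GATA matches. CANNTG, an E-box, was found before 6 of the 7 genes and in 66.0% of all promoters, and TGTGGT, a RUNX motif, before 3 and in 14.2%. TTGCNNAA, a CEBP motif, was found before 2 of the genes and in 9.55% of all promoters, and TTCNNNGAA, a STAT motif, before none and in 7.18%.

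All 8 genes with a row had a higher mean in CML-TKI LSCs than in CML LSCs. For 5 of them (Il1rl1, Cpa3, Mcpt8, Hdc and Cdh1) every CML-TKI library lay above every CML library, which was so for 10.3% of the 11937 genes tested. Mcpt8 was not among the genes tested. In CML-TKI 3 it rested on 1 count and Cpa3 on 3 counts, no more than the floor. Without CML-TKI 3 the groups of all 8 genes were apart, but the share over all genes was not computed for those libraries. A bulk library cannot tell more cells of a type from more RNA per cell, so that these levels may stand for either. In edgeR's quasi-likelihood test, 6.29% of the genes tested were called higher in CML-TKI. No call is given for the 8 genes, and nothing is read from how many were apart, since they were selected on this contrast. Without CML-TKI 3 the ratio of the group means was 11.9 for Il1rl1, 15.6 for Cpa3, 23.9 for Hdc and 41.4 for Fcer1a. The filter on low counts left out Ms4a2, Fcer1a, Mcpt8 and Prss34, of which CML-TKI 3 had 0, 0, 1 and 0 counts.

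**Figure D1:**
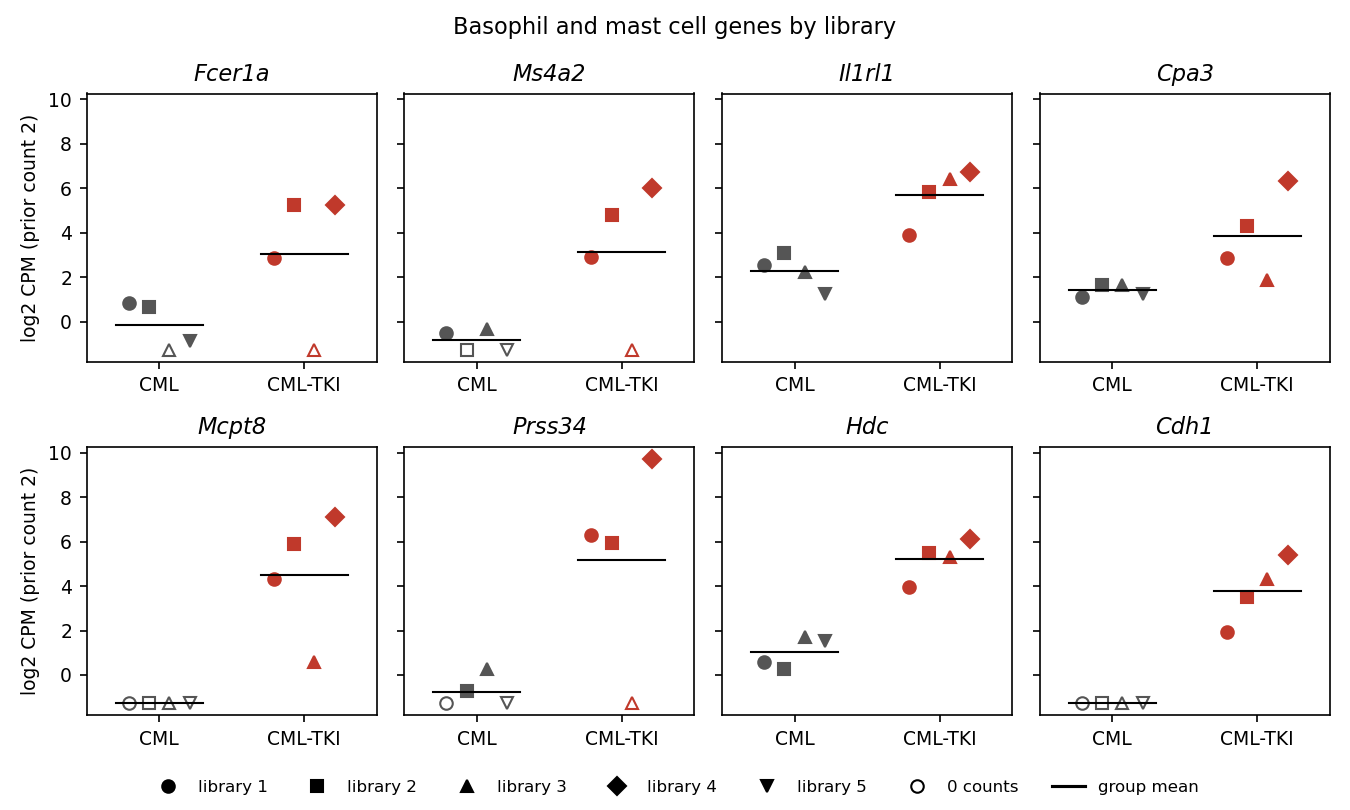
Levels of the 8 basophil and mast cell genes in each library. The vertical axis gives log2 CPM with a prior count of 2, the horizontal axis the group, each marker shape stands for a library number, open markers are libraries with 0 counts and lines are group means (n = 4 each). CML-TKI 4 is the highest library for every gene, and the triangle of CML-TKI 3 falls to the level of the CML libraries for Fcer1a, Ms4a2 and Prss34.

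Of the IgE receptor, Fcer1a (ENSMUSG00000005339.10, chr1:173221284-173227214, minus strand) had 6.84, 37.5, 0 and 38.2 CPM in CML-TKI libraries 1 to 4, and 1.36, 1.16, 0 and 0.138 CPM in CML libraries 1, 2, 3 and 5. Its mean was 20.6 ± 20.1 CPM (SD, n = 4) in CML-TKI and 0.664 ± 0.695 CPM (SD, n = 4) in CML, a ratio of 31.1. 3 of the 4 CML-TKI libraries were above all CML libraries, and CML-TKI 3 had none of its reads. Ms4a2 (ENSMUSG00000024680.12, chr19:11615523-11623719, minus strand) had 7.22, 27.3, 0 and 65.0 CPM in CML-TKI libraries 1 to 4 and 0.272, 0, 0.387 and 0 CPM in the CML libraries. The beta chain thus showed the same pattern as the alpha chain, with CML-TKI 3 again at 0. Ms4a2 rested on 4 counts in all CML libraries together against 376 in CML-TKI, a ratio of pooled levels of 177 with a 95% counting interval from 68.6 to 654. The interval covers counting error of the pooled reads and not the spread between libraries. Each CML library lay under the floor of 3 counts, and the CML-TKI mean was at least 50.3-fold higher than that floor. Without CML-TKI 4 the ratio of pooled levels was 83.6 (31.9 to 312). In CML-TKI 3 the lowest of the other CML-TKI levels would have given 6.24 counts of Fcer1a and 6.59 counts of Ms4a2.

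Il1rl1 (ENSMUSG00000026069.15, chr1:40429570-40465415, plus strand) was the only receptor of the set seen in every library. It had 14.6, 56.1, 85.5 and 105 CPM in CML-TKI libraries 1 to 4 and 5.45, 8.11, 4.25 and 1.93 CPM in CML libraries 1, 2, 3 and 5. Its lowest CML-TKI library, CML-TKI 1, lay above its highest CML library, CML 2. The means were 65.4 ± 39.4 CPM (SD, n = 4) and 4.93 ± 2.57 CPM (SD, n = 4), a ratio of 13.3. CML-TKI 3, at 0 for the alpha and beta chains of the IgE receptor, had the second highest Il1rl1 level.

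Among the granule proteases, Mcpt8 (ENSMUSG00000022157.8, chr14:56082166-56085273, minus strand) had 19.4, 58.6, 1.10 and 139.7 CPM in CML-TKI libraries 1 to 4 and no count in any CML library. The value of CML-TKI 3 was a single count, under the floor of that library, where the lowest of the other CML-TKI levels would have given 17.7. The CML-TKI mean of 54.7 ± 61.5 CPM (SD, n = 4) was at least 110.5-fold higher than the floor of 3 counts per CML library, and at least 53.2-fold without CML-TKI 4. Prss34 (ENSMUSG00000056399.2, chr17:25298394-25300165, plus strand) had 77.9, 61.7, 0 and 840.3 CPM in CML-TKI libraries 1 to 4 and 0, 0.193, 0.773 and 0 CPM in the CML libraries. CML-TKI 4 held 85.8% of the CML-TKI sum, and at the level of CML-TKI 2 the library CML-TKI 3 would have had 56.3 counts instead of 0. Prss34 had 5 counts in the CML libraries together and 3839 in CML-TKI. The ratio of pooled levels was 1447 with a 95% counting interval from 620 to 4460, and 323 (138 to 999.7) without CML-TKI 4.

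Cpa3 (ENSMUSG00000001865.2, chr3:20215620-20242181, minus strand) had counts in every library, in CML-TKI 3 no more than the floor of 3. It had 6.84, 19.2, 3.29 and 80.4 CPM in CML-TKI libraries 1 to 4 and 1.77, 2.70, 2.71 and 1.93 CPM in CML libraries 1, 2, 3 and 5. The groups did not overlap, but CML-TKI 3 lay close to CML 2 and CML 3. Its means were 27.4 ± 36.0 CPM (SD, n = 4) and 2.28 ± 0.498 CPM (SD, n = 4), a ratio of 12.05 that was 4.30 without CML-TKI 4. The CML libraries varied less for Cpa3 than the CML-TKI libraries, whose SD exceeded their mean.

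Hdc (ENSMUSG00000027360.5, chr2:126593667-126619299, minus strand) had 15.2, 44.9, 39.5 and 69.7 CPM in CML-TKI libraries 1 to 4 and 1.09, 0.772, 2.899 and 2.48 CPM in CML libraries 1, 2, 3 and 5. The groups were apart, with means of 42.3 ± 22.4 CPM (SD, n = 4) and 1.81 ± 1.04 CPM (SD, n = 4), a ratio of 23.4. Unlike the proteases, Hdc in CML-TKI 3 stood close to its level in CML-TKI 2. Cdh1 (ENSMUSG00000000303.12, chr8:106603351-106670246, plus strand) had 3.42, 11.2, 19.7 and 41.1 CPM in CML-TKI libraries 1 to 4 and no count in any CML library. Its mean of 18.9 ± 16.3 CPM (SD, n = 4) was at least 38.1-fold higher than the floor per CML library, and at least 23.1-fold without CML-TKI 4. Of the epithelial markers, Epcam stood at or under 0.950 CPM in every library, and Krt18, a keratin, was lower in CML-TKI (log2 fold change -2.44, Benjamini-Hochberg adjusted p = 0.0199 in edgeR's quasi-likelihood test).

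Shared sequence with other genes was low. Of all 50-base stretches of their transcripts, 2.1% for Ms4a2 (mostly shared with Ms4a4b), 0.0941% for Hdc and 0.0438% for Il1rl1 occurred in transcripts of another gene, and none for the other 5. No exon of another annotated gene overlapped an exon of the 8 genes in the GENCODE annotation of GRCm38.

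Set per kilobase of annotated exon, so that genes can be ranked, mean levels in CML-TKI were 201 ± 327 CPM per kb (SD, n = 4) for Prss34, 54.8 ± 61.7 for Mcpt8, 20.7 ± 20.1 for Fcer1a and 18.1 ± 23.7 for Cpa3. They were 9.49 ± 5.73 CPM per kb for Il1rl1, 8.84 ± 10.4 for Ms4a2, 6.62 ± 3.50 for Hdc and 4.12 ± 3.56 for Cdh1. No neighbours in this order differed by more than the larger of their SDs. The highest gene per kb was Prss34 in CML-TKI 1 and 4, Mcpt8 in CML-TKI 2 and Il1rl1 in CML-TKI 3. In CML LSCs the order was another, led by Cpa3 with 1.5 CPM per kb and Il1rl1 with 0.716 CPM per kb.

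The treated libraries split the 8 genes by their level in CML-TKI 3. CML-TKI 4 was the highest CML-TKI library for 8 of 8 genes, CML-TKI 3 the lowest for Fcer1a, Ms4a2, Cpa3, Mcpt8 and Prss34, and CML-TKI 1 the lowest for Il1rl1, Hdc and Cdh1. The first 5 genes summed to 118.1, 204.2, 4.38 and 1164 CPM in CML-TKI libraries 1 to 4, and to between 2.06 and 4.05 CPM in CML. CML-TKI 3 was thus close to the CML libraries for these genes. Il1rl1, Hdc and Cdh1 summed to 33.2, 112.2, 144.7 and 216.2 CPM in CML-TKI libraries 1 to 4 and to between 4.40 and 8.88 CPM in CML, so that CML-TKI 3 was the second highest library for this sum, although the third for Hdc. This grouping was read from the same values and has no test. When each library was thinned to the 1041552 counts of CML-TKI 3, CML-TKI 1 kept 4 counts of Ms4a2, 12 of Fcer1a, 8 of Cpa3 and 20 of Mcpt8, and CML-TKI 2 kept 72 of Prss34, the next lowest in each case. CML-TKI 3 had 0, 0, 3, 1 and 0 counts of these genes.

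**Figure D2:**
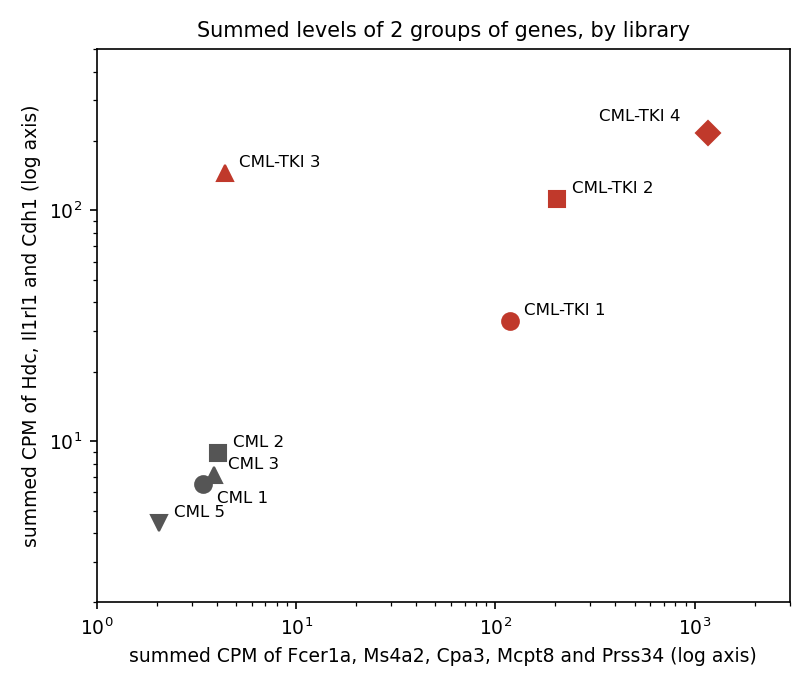
Summed CPM of Fcer1a, Ms4a2, Cpa3, Mcpt8 and Prss34 (horizontal) against summed CPM of Hdc, Il1rl1 and Cdh1 (vertical), both on log axes, with 1 point per library. The CML libraries lie together at the lower left, CML-TKI 1, 2 and 4 at the upper right, and CML-TKI 3 at 4.38 CPM on the horizontal and 144.7 CPM on the vertical axis.

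Marker genes of other lineages moved in the same libraries. Over all tested genes, 6.29% were called higher in CML-TKI and 3.93% lower. Of the eosinophil list, 8 of the 10 genes could be tested and all 8 were called higher in CML-TKI, where the list summed to between 153.4 and 3546 CPM against 8.11 to 52.0 CPM in CML. Some had almost no counts in CML, such as Il5ra at no more than 0.193 CPM, and passed the low-count filter through CML-TKI only. Prg3 and Ccr3 did not pass it, so that nothing is read from all tested genes being called. Without CML-TKI 3, 9 genes of the list were tested and all 9 were called higher. Epx, the eosinophil peroxidase, had 337.5, 713.4, 0 and 1149 CPM in CML-TKI libraries 1 to 4, and Prg2, the granule major basic protein, had 380.8, 770.4, 0 and 1398 CPM. Epx, Prg2 and Ear6, an eosinophil ribonuclease, were at 0 in CML-TKI 3, as were the alpha and beta chains of the IgE receptor. Other genes of the list were present in that library, among them Ear1 at 54.8 CPM, Alox15 at 27.4 CPM, Ear2 at 23.0 CPM, Siglecf at 21.9 CPM and Il5ra, the IL-5 receptor chain of eosinophils and basophils, at 4.38 CPM. Ccr3, an eotaxin receptor, was highest there of all libraries, at 21.9 CPM. The neutrophil lineage list had 12 of 13 and the monocyte and macrophage list 10 of 11 tested genes called higher, and 9 each without CML-TKI 3. Their sums reached 7969 and 5424 CPM in CML-TKI 3. The part of these other lineages in the levels of the basophil and mast cell genes was not tested.

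Of the connective tissue mast cell list, 2 of 10 genes had a row. Slc18a2, the monoamine transporter that loads histamine into granules, was lower in CML-TKI, and Hs3st1, a heparan sulfate enzyme, was not called, with the list summing to between 128.5 and 205.4 CPM in CML and between 34.0 and 90.2 CPM in CML-TKI. The defining mast cell proteases of that list, Cma1, Mcpt4, Tpsab1 and Tpsb2, were not analysed here. The B cell list summed to between 17.9 and 23.4 CPM in CML and 16.9 to 287.1 CPM in CML-TKI, and the NK and T cell list to between 15.6 and 31.6 CPM and 19.8 to 264.1 CPM, with CML-TKI 3 the highest for both. Of these 2 lists, 1 and 2 genes passed the low-count filter and none was called. The innate lymphoid cell 2 list, whose cells also carry the IL-33 receptor, summed to 21.9 to 43.3 CPM in CML and 13.2 to 49.9 CPM in CML-TKI, and its members did not move one way. Its factor Gata3 was lower in CML-TKI (log2 fold change -2.22, adjusted p = 0.0247 by edgeR). Il7r, Il2ra and Icos, too low to be tested, lay above all CML libraries in each CML-TKI library, with Il7r at 1.33, 16.4, 2.19 and 29.1 CPM in CML-TKI libraries 1 to 4 and no more than 0.193 CPM in CML. In CML-TKI 3 each stood at 2.19 CPM, under the floor of 3.29 CPM. Il2ra and Icos stood at 0.570 CPM in CML-TKI 1, which is its floor. The epithelial list summed to 35.7 to 47.0 CPM in CML and 1.24 to 15.8 CPM in CML-TKI. The erythroid list had 2 of 11 tested genes called higher (1 without CML-TKI 3) and summed to 37450 CPM in CML-TKI 3 against 330.3 to 1598 CPM in the other CML-TKI libraries and 723 to 846.5 CPM in CML. The stem cell list had 4 of 11 and the megakaryocyte list 2 of 8 tested genes called lower, where 3.93% of all tested genes were, and none higher. Without CML-TKI 3 these were 3 of 12 and 1 of 8.

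**Figure D3:**
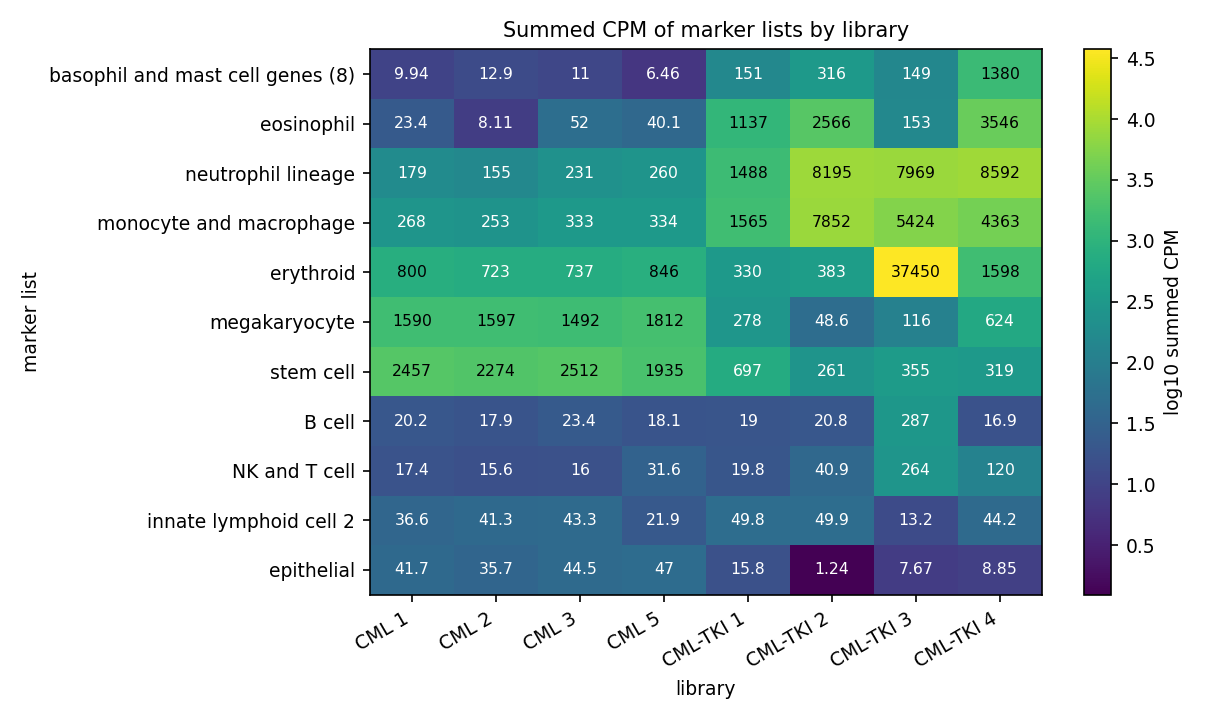
Summed CPM of the 8 basophil and mast cell genes (top row) and of 10 marker lists (other rows) in each library (columns), with the value printed in each cell and the color giving its log10. The eosinophil sum is lowest of the treated libraries in CML-TKI 3, with 153.4 CPM, where the erythroid, B cell and NK and T cell sums are highest.

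To see how the rest of the pathway behaved, 102 partner genes in 5 lists were followed in the same fit, of which 90 had a row and 80 were tested. With p-values adjusted by Benjamini-Hochberg, edgeR's quasi-likelihood test called 27 of the 80 higher in CML-TKI (33.8%, where 6.29% of all tested genes were) and 9 lower (11.2%, where 3.93% of all were), and 44 were not called. Over all genes, 10.2% were called in either direction. The lists were chosen with earlier results known, and no list was tested as a whole. Without CML-TKI 3, 25 were called higher and 9 lower. CML libraries 1 to 3 were far more alike than the others, with a chi-square per degree of freedom of 3.88 to 5.75 between them and of 84.3 to 88.0 against CML 5. With these 3 libraries summed to 1, 6 partner genes were called higher (Ctsg, Ccr2, Lilrb4a, Ccl9, Ccl6 and Irf8) and 1 lower (Kit). All other calls of partner genes were lost, among them Gata2 at an adjusted p of 0.0558 and Osm at 0.358 in edgeR. Leaving out any CML library lowered the 9 lower partner genes to 5, with CML 1, 2, 3 or 5 out in turn.

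Beside the alpha and beta chains, 22 IgE receptor signaling genes were tested, of which 5 were called higher (4 without CML-TKI 3) and none lower, with a median log2 fold change of 0.11 against -0.00026 over all genes. Fcer1g, the gamma chain that other Fc receptors share, had 7.03, 32.9, 31.8 and 15.4 CPM in CML-TKI libraries 1 to 4 and between 1.16 and 2.89 CPM in CML. It was higher in CML-TKI (log2 fold change 3.43 with a standard error, SE, of 0.62, adjusted p = 0.0084), and unlike the alpha and beta chains it was present in CML-TKI 3. Lat2, an adaptor of the receptor, rose (log2 fold change 2.96, SE 0.47, adjusted p = 0.00435), as did the kinase Prkcd (1.80, SE 0.31, adjusted p = 0.0065). With CML libraries 1 to 3 summed, these calls were lost, at adjusted p = 0.163 for Fcer1g, 0.121 for Lat2 and 0.158 for Prkcd. Prkcb, another protein kinase C, was called as well. Lyn, the kinase that starts the signal, had a log2 fold change of 1.26 (SE 0.34, adjusted p = 0.0435), and the call was lost when any library other than CML-TKI 1 was left out (adjusted p up to 0.117). Syk, the kinase that follows, did not pass the test, with 273.6 ± 123.1 CPM (SD, n = 4) in CML-TKI and 257.7 ± 11.1 CPM (SD, n = 4) in CML. Pik3cd, a phosphoinositide kinase, did not pass it either (log2 fold change 0.56, SE 0.26), but did without CML-TKI 1 (adjusted p = 0.0352).

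Of the other granule and mediator genes, 12 were tested, 4 were called higher and 1 lower (2 lower without CML-TKI 3), with a median log2 fold change of 0.25. Ctsg, cathepsin G, a protease also of neutrophil granules, had 86.6, 444.7, 354.0 and 397.5 CPM in CML-TKI libraries 1 to 4 and between 0.193 and 2.20 CPM in CML. Its log2 fold change was 7.91 (SE 0.72, adjusted p = 5.41e-04 by edgeR). Lamp1, a lysosome membrane protein, rose by a log2 fold change of 1.59 (SE 0.25, adjusted p = 0.00469). Alox5, the enzyme that starts leukotriene synthesis, had a log2 fold change of 2.31 (SE 0.48, adjusted p = 0.0145), with the call lost without CML 1, 3 or 5 and an adjusted p of up to 0.0567. Prg2 was the other gene called higher. Slc18a2 had 175 ± 37.1 CPM (SD, n = 4) in CML and 59.8 ± 26.7 CPM (SD, n = 4) in CML-TKI (log2 fold change -1.53, SE 0.34, adjusted p = 0.0192), and without CML 1, 2 or 3 or CML-TKI 2 it missed the threshold, with adjusted p up to 0.0632. Srgn, the proteoglycan core of the granules, and Alox5ap, which presents the substrate to Alox5, were not called, with log2 fold changes of 0.19 (SE 0.34) and 0.56 (SE 0.35). Without CML-TKI 1, Alox5ap was called higher (adjusted p = 0.0479).

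**Figure D4:**
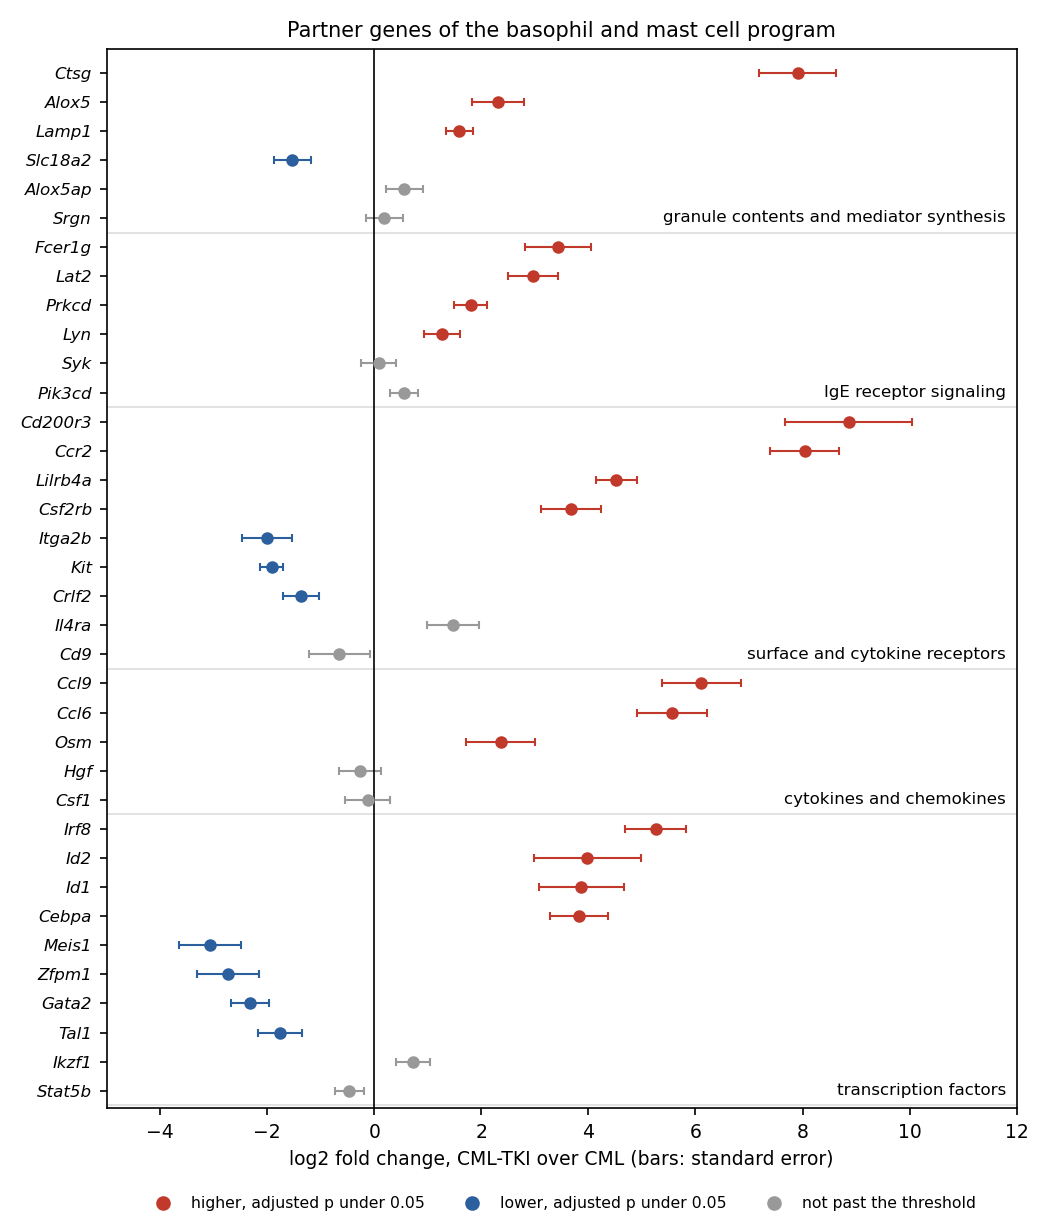
Log2 fold changes of CML-TKI over CML (horizontal axis) with SEs for the named partner genes (vertical axis), grouped by list. Red points were called higher, blue points lower and gray points neither at an adjusted p of 0.05. The values run from -3.07 for Meis1 to 8.86 for Cd200r3, whose CML libraries had no count, so that its fitted value depends on the prior count.

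Of the surface and cytokine receptors, 20 were tested, 6 were called higher and 3 lower (2 lower without CML-TKI 3), with a median log2 fold change of 0.61. Cd200r3, a receptor of basophils and mast cells, had 3.04, 13.3, 15.3 and 17.2 CPM in CML-TKI libraries 1 to 4 and no count in the CML libraries, and was called higher (adjusted p = 0.00608 by edgeR). Against the floor per CML library it was at least 24.7-fold higher, and with this bound in place of the fitted value the median of the list stayed at 0.61. Cd200r3 was therefore also present in CML-TKI 3. Csf2rb, the shared receptor chain of IL-3, IL-5 and GM-CSF, rose (log2 fold change 3.68, SE 0.56, adjusted p = 0.00369), as did its close copy Csf2rb2, so that the reads of the pair may be split uncertainly. Il3ra, the IL-3 binding chain, did not pass the test (log2 fold change 0.49, SE 0.79). Ccr2, a chemokine receptor of monocytes, had a log2 fold change of 8.04 (SE 0.65, adjusted p = 4.62e-04). Lilrb4a, an inhibitory receptor with a close copy, had 4.52 (SE 0.38, adjusted p = 5.41e-04), and Itgb7, an integrin of mast cell progenitors, was also called higher. Il1rap, the partner chain of Il1rl1 in the IL-33 receptor, had 24.3, 70.04, 4.38 and 40.3 CPM in CML-TKI libraries 1 to 4 and between 25.98 and 39.95 CPM in CML, with a log2 fold change of 0.025 (SE 0.57). Thus CML-TKI 3, second highest for Il1rl1, was the lowest for its partner chain.

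Kit, the stem cell factor receptor that mast cells keep and mature basophils lose, was lower in CML-TKI (log2 fold change -1.92, SE 0.21, adjusted p = 8.70e-04 by edgeR), and no library left out ended the call. Itga2b, an integrin of megakaryocytes and early progenitors, was lower too (log2 fold change -2.01, SE 0.47, adjusted p = 0.0263), a call lost without CML 1, 2, 3 or 5 or CML-TKI 3, at adjusted p up to 0.0698. Crlf2, a chain of the TSLP receptor, had a log2 fold change of -1.37 (SE 0.33, adjusted p = 0.0271) and missed the threshold without any one CML library (adjusted p up to 0.0822). Il4ra and Cd9 were not called, with log2 fold changes of 1.47 (SE 0.48) and -0.65 (SE 0.57). Without CML-TKI 1, in which Cd9 stood at 100.9 CPM, both were called, Il4ra higher (1.71, adjusted p = 0.0237) and Cd9 lower (-1.72, adjusted p = 0.00562). 3 surface genes of mature cells, Enpp3, an ectoenzyme, and the receptors Ptgdr2 and Hrh4, had too few counts to be tested, and Hrh4, a histamine receptor, reached 4.16 CPM in CML-TKI 4 and no more than 0.193 CPM elsewhere.

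Of the cytokines and chemokines, 5 of 10 with a row were tested and 3 were called higher (2 without CML-TKI 3), with a median log2 fold change of 2.36. Ccl9 had 27.5, 267.1, 111.8 and 100.9 CPM in CML-TKI libraries 1 to 4 and no more than 3.48 CPM in CML (log2 fold change 6.11, SE 0.74, adjusted p = 0.00126 by edgeR). Ccl6, another chemokine of myeloid cells, had a log2 fold change of 5.56 (SE 0.65, adjusted p = 0.00107). Osm, a cytokine of the IL-6 family, had 2.36 (SE 0.65, adjusted p = 0.0479), with CML-TKI 3 the highest at 68.0 CPM and a log2 fold change of 1.43 without it. The call was lost without CML 1, 2, 3 or 5 or CML-TKI 3 or 4, with adjusted p up to 0.137. Il4, the type 2 cytokine that basophils release, was not tested, and stood at 0 in CML-TKI libraries 2, 3 and 4. Csf1 and Hgf, growth factors, did not pass the test, with log2 fold changes of -0.12 (SE 0.42) and -0.26 (SE 0.39).

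Of the transcription factors, 21 were tested, 9 were called higher and 5 lower, with a median log2 fold change of 0.25. Gata2 had 74.8, 21.7, 65.8 and 66.3 CPM in CML-TKI libraries 1 to 4 and 267.3, 252.5, 259.3 and 358.5 CPM in CML libraries 1, 2, 3 and 5. It was lower in CML-TKI (log2 fold change -2.32, SE 0.36, adjusted p = 0.00418 by edgeR). No single library left out ended the call, but it was lost with CML libraries 1 to 3 summed (adjusted p = 0.0558). Zfpm1, the GATA cofactor FOG1, and Tal1, which binds beside GATA factors, were lower as well, with log2 fold changes of -2.73 (SE 0.58, adjusted p = 0.0172) and -1.76 (SE 0.41, adjusted p = 0.0263). Zfpm1 missed the threshold without CML 5 (adjusted p = 0.0515), and Tal1 without CML 1, 2, 3 or 5 or CML-TKI 2 (adjusted p up to 0.0712). Gata1 did not pass the test (log2 fold change -1.32, SE 0.54, adjusted p = 0.155), nor did Mitf, a mast cell factor, at 0.22 (SE 0.60, adjusted p = 0.862). Meis1, a stem cell factor, was lower (log2 fold change -3.07, SE 0.58, adjusted p = 0.0102), and CML-TKI 1 held 86.0 CPM of it against 8.77 to 21.9 CPM in the other CML-TKI libraries. Its log2 fold change without CML-TKI 1 was -4.07.

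Cebpa, a factor of granulocyte precursors that basophils keep and mast cells lose, had 30.8, 122.7, 114.0 and 193.3 CPM in CML-TKI libraries 1 to 4 and between 6.13 and 12.9 CPM in CML. Its log2 fold change was 3.83 (SE 0.54, adjusted p = 0.00264 by edgeR). Irf8, a factor of monocyte and basophil progenitors, had 5.26 (SE 0.57, adjusted p = 8.70e-04), with 71.0, 318.0, 245.5 and 356.1 CPM in CML-TKI libraries 1 to 4. Id1 and Id2, inhibitors of E-box factors, were called higher as well (3.87, SE 0.79, adjusted p = 0.0139, and 3.98, SE 1.0, adjusted p = 0.0336), with CML-TKI 1 far above the others. Without CML-TKI 1 their log2 fold changes were 2.67 and 1.91, both still called. Both calls were lost without CML 1, 2 or 3, with adjusted p up to 0.055 for Id1 and 0.108 for Id2, and that of Id2 also without CML 5. Ikzf1 and Stat5b, a lymphoid factor and a cytokine signal transducer, were not called, with log2 fold changes of 0.73 (SE 0.32) and -0.47 (SE 0.27). Without CML-TKI 1, Ikzf1 was called higher (adjusted p = 0.00928).

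Of all tested genes outside the set, 10 followed the mean log2 CPM of Il1rl1, Cpa3, Hdc and Cdh1 most closely over the 8 libraries, with Pearson's r between 0.978 and 0.997. They were Fn1, Inpp5j, Adpgk, Fcnb, Atp1b1, Il5ra, Cd200r3, Ccdc189, Arsb and Lta4h. The libraries share their groups, so that these values describe a likeness over 8 points and carry no p. Fn1, fibronectin, had 91.2, 433.2, 360.6 and 1012 CPM in CML-TKI libraries 1 to 4 and between 9.76 and 15.5 CPM in CML. Lta4h, an enzyme of leukotriene synthesis, had 120.4, 260.9, 238.9 and 376.7 CPM in CML-TKI libraries 1 to 4 and between 74.0 and 91.9 CPM in CML.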

How the data were processed

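Bulk RNA-seq of LSCs from 4 CML and 4 CML-TKI samples was analysed. The authors extracted total RNA (RNeasy Plus mini kit), made Nextera XT libraries, aligned reads with STAR 2.6.1d to mm10, counted over RefSeq transcripts using Partek Flow (Partek 8.0 in the submitters' processing notes) and deposited unnormalized estimated counts per gene, without a stated use of strand. Columns were matched to labels by group and number, the column numbered 5 by group only.

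The expected counts were rounded. edgeR 4.0.16 (R 4.3.3) was run with TMM, filterByExpr (minimum count 10, minimum total 15), robust dispersions and the quasi-likelihood test over all 11937 genes that passed, adjusted by Benjamini-Hochberg (threshold 0.05). CPM are TMM-scaled, log2 CPM use a prior count of 2, and SEs are the log2 fold change over the square root of F. Scripts were tested on simulated data. Annotation was GENCODE for GRCm38, the build of mm10, and promoters came from RefSeq.

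The members and lists were chosen with earlier results of these data known. Named partner genes were, per list, up to 4 called genes in each direction with the largest change and no overlap between groups, and the 2 most abundant genes not called. Prg2, Prkcb, Il3ra, Il1rap, Itgb7, Csf2rb2, Gata1, Mitf, Il4, Enpp3, Ptgdr2, Hrh4 and single marker genes were chosen after their values were seen. Alternatives covered the test (DESeq2 1.42.0, limma 3.58.1 voom), scaling, filter, threshold, replicate block, depth and libraries used. Intervals cover counting error only, as reads without molecular identifiers are not independent molecules.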

Additional observations from a re-analysis of the deposited data

Results flagged for a closer look

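Of 90 measures checked within groups of 4 libraries, 15 had a library whose distance from its nearest neighbour took up most of the group's range, where chance gives about 1 in 20. Among the basophil and mast cell genes, Prss34 had 840.3 CPM in CML-TKI 4 against 0 to 77.9 CPM in the other CML-TKI libraries, and the sum of the 8 genes was 1380 CPM in CML-TKI 4 against 149.1 to 316.4 CPM.

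Among the partner genes, CML-TKI 1 stood apart for Id1 (83.8 CPM, others 13.2 to 14.9), Id2 (85.3 CPM, others 4.94 to 8.37), Meis1 (86.0 CPM, others 8.77 to 21.9) and Cd9 (100.9 CPM, others 13.6 to 27.1). CML-TKI 3 stood apart for Osm (68.0 CPM, others 10.5 to 18.99) and CML-TKI 2 for Gata2 (21.7 CPM, others 65.8 to 74.8). CML 5 stood apart for Gata2 (358.5 CPM, others 252.5 to 267.3), Alox5ap (143.7 CPM, others 87.5 to 94.2), Srgn (133.6 CPM, others 86.6 to 94.2), Prkcd (71.9 CPM, others 54.8 to 57.6), Cebpa (12.9 CPM, others 6.13 to 6.76) and Hgf (18.3 CPM, others 34.7 to 37.9). CML 3 stood apart for Ccl9 (3.48 CPM, others 1.16 to 1.51).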

How the results depend on the processing

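The number of genes called, 1220, was 2157 with DESeq2, 2563 with limma-voom and quality weights, 395 at an adjusted p under 0.01 and 122 with CML libraries 1 to 3 summed to 1 library. With a library left out it ran from 505 (without CML 1) to 2504 (without CML-TKI 1). Partner genes called higher, 27, were 17 at an adjusted p under 0.01, 6 with the CML libraries summed, and 19 to 34 with a library left out. Partner genes called lower, 9, were 15 with limma-voom, 2 at an adjusted p under 0.01, 1 with the CML libraries summed, and 5 to 12 with a library left out. The groups of 5 basophil and mast cell genes did not overlap, 5 to 8 with a library left out (8 without CML-TKI 3) and 4 with all libraries thinned to the smallest total. The share of all genes without overlap was not computed under these settings. No gene named with a main call changed direction under these settings, and the members' differences of mean log2 CPM kept their sign in all 22 settings, from 1.55 for Cpa3 to 8.19 for Prss34. The cause of these changes was not tested. Total counts without Rn45s, a ribosomal RNA gene, put the median over all tested genes at -0.14 (log2).

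With the replicate number as a block on the libraries numbered 1 to 3, 193 genes were called against 589 in the same libraries without the block, 8 partner genes higher and 4 lower. After the group mean of each gene was taken off, same-numbered libraries correlated at -0.04, 0.10 and 0.09. As CML libraries 1 to 3 were far more alike than the others, these values cannot show whether same-numbered libraries share more than a number. Depth limits the genes near the floor of 3.29 CPM in CML-TKI 3.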
